A study of Mus musculus with 4 samples.

Results

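Nuclear receptors are transcription factors that small lipophilic molecules switch on or off. The genes described here are 36 members of that family in mouse liver, of 54532 genes in the count table. They were taken by gene symbol from the count table, the FPKM table and the 3 comparison tables of the study, and all 36 symbols were found. The set leaves out the clock receptors Nr1d1 and Nr1d2 and the small heterodimer partner Nr0b2, so it is most but not all of the family.

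The study asked what the enzymes encoded by Cpt1a and Cpt2 contribute to gene expression in the fasted liver. Both enzymes act in the carnitine shuttle that carries long-chain fatty acids into mitochondria. The series holds 1 group of 4 RNA-seq libraries, labelled as liver-specific Cpt1a knockout livers after a 24 h fast and called livers 1 to 4 below. The authors' tables bring in another pair of groups. In the file headers the groups are Cpt1a_AlbCre and Cpt2_AlbCre, called the Cpt1a knockout and the Cpt2 group here, and Rab30Cpt2_f, against which both were set. AlbCre is the usual name of a Cre recombinase under the albumin promoter, which is active in hepatocytes and not in the other cells of the adult liver. What Rab30Cpt2_f stands for is not explained in the labels, although the design text speaks of littermate controls and says that all mice were fasted alike. The headers show 4 libraries for each of the other groups, and per the design text the Cpt2 libraries had been submitted before, with another series. No source used here gives the strain, sex or age of the mice, or says whether alleles are shared by all groups. Nor do the labels say that each library is a mouse of its own, so spread among livers 1 to 4, and the p-values, may reflect technical differences alone.

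Most receptors of this family bind DNA as pairs, and many share the retinoid X receptors as the partner. In the liver they read the state of fuel and bile: PPARalpha senses fatty acids in fasting, LXR oxysterols, FXR bile acids, PXR and CAR drugs and other foreign compounds, and the glucocorticoid receptor the stress hormone of fasting. Others, such as HNF4alpha, have no switching ligand in the usual sense and hold the hepatocyte programme in place. The level of a receptor's transcript says nothing of whether its ligand is present.

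The livers had 14106038, 13138884, 14116441 and 13682887 counts, in which 19732 to 20258 genes were counted. Cpt1a itself was at 24.4, 28.6, 31.1 and 36.9 FPKM in livers 1 to 4. The authors' deposited table gave Cpt1a a log2 fold change of −2.79 in the Cpt1a knockout against the Rab30Cpt2_f group (adjusted p = 5.27e-51). In the authors' deposited table Cpt2 was not called in the Cpt2 group (log2 fold change −0.07, adjusted p = 0.837), so the label of that group is not checked by its transcript. Comparisons between groups rest on the authors' values, which carry no SD or n here. Whether the Cpt1a knockout was sequenced with the other groups is not given, so batch and genotype cannot be told apart.

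Transcripts of the family ranged over 4 orders of magnitude in the Cpt1a knockout livers. FPKM scales reads to the length of the gene and the size of the library, so levels of different genes can be set side by side. Of the 36 genes, 28 had a mean of at least 1 FPKM, as did 43.1% of the 22046 protein-coding genes in the table. Summed over the family, the level was 550.5, 533, 520.4 and 547 FPKM in livers 1 to 4, or 538 ± 13.7 FPKM (SD, n = 4). Hnf4a alone made up 22.9% of that sum, Rxra 14.4%, Nr1h4 11.1% and Ppara 9.33%.

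In order of mean level, Hnf4a stood first, Rxra next and Nr1h4 after it, and the ranges of these 3 over the livers did not overlap. After Nr1h4 came Ppara, Nr1i2 and Nr1h3, whose ranges overlapped from each to the next. Below Nr1h3 there was a small gap, from its lowest value of 32.1 FPKM to the highest of Nr1i3 at 31.6 FPKM. Then Nr1i3, Esrra, Nr2f6, Nr1h2, Nr5a2, Nr3c1, Rxrb, Rora and Nr2f2 followed with overlapping ranges. The ranges of Nr2f2 and Thrb, next in order, did not overlap. Rora, ranked above them, fell to 4.58 FPKM and Pparg, ranked below them, reached 5.40 FPKM, so no gap parted the runs. Thrb at 4.32 FPKM began a run of 15 genes down to Esrrg at 0.512 FPKM, again overlapping from each to the next. Nr2f1, Rarb and Nr4a2 were at 0.180 to 0.262 FPKM, and Hnf4g, Nr4a3 and Vdr at 0.012 to 0.056 FPKM. The last 3 were under a mean of 10 counts, and a difference in them among livers 1 to 4 would not be detectable at this depth.

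**Figure D1:**
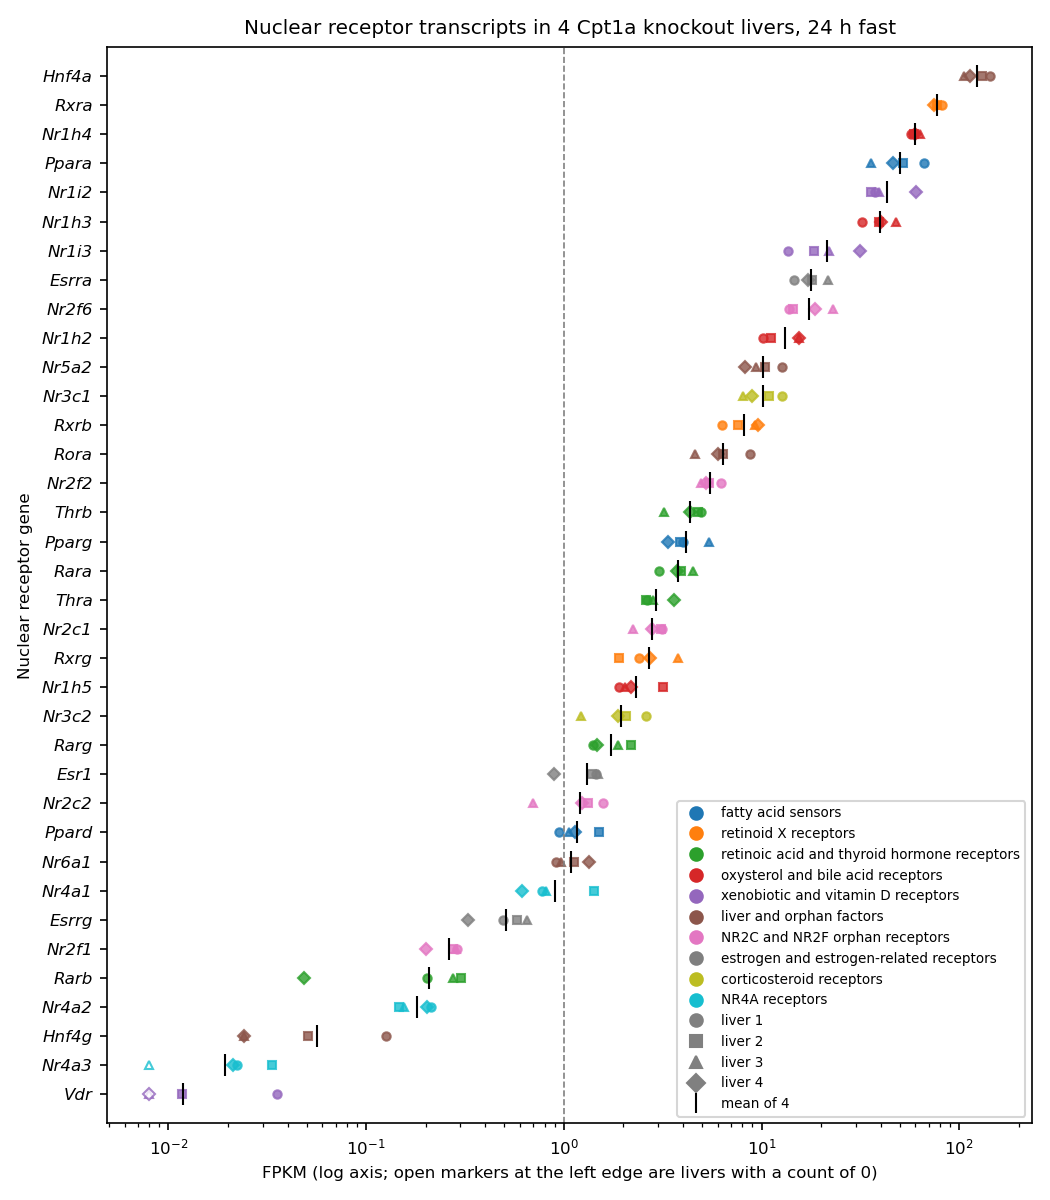
FPKM of 36 nuclear receptor genes in the 4 Cpt1a knockout livers (log axis), 1 marker shape per liver, a bar at the mean and colours by role; the dashed line is at 1 FPKM. Hnf4a leads at 123 FPKM, 28 genes have a mean of at least 1 FPKM, and open markers stand for livers with a count of 0 (Vdr in livers 3 and 4, Nr4a3 in liver 3).

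The Cpt1a knockout had more transcript of Nr1i3 (CAR) and Nr1h5 (FXRbeta) and less of Hnf4a than the Rab30Cpt2_f group. Of the exon bases of Nr1i3, 74.9% are shared with Tomm40l on the opposite strand, so its calls in all that follows may hold reads of that gene. The authors' deposited table called these 3 of 36 genes at an adjusted p below 0.05, 2 higher and 1 lower, or 8.33% of the family. The background was 14.4% of the 16862 tests behind that table, 6.81% higher and 7.6% lower. The share of receptors called was not above it. How many of the 36 receptors were among those tests is not given. This table lists a gene only where its unadjusted p was 0.05 or less. It held 8 of the 36 receptors, and 24.8% of the genes that have an adjusted p in both of the other tables. For the 28 receptors it does not list, the fold changes of the remaining 2 tables were added on the log2 scale, and this is called the summed value below. Over genes present in both sources the summed value differed from the listed one by a median of 0.012. The median summed value of the 36 was −0.10, beside 0.0079 over 17054 genes.

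The Cpt2 group had more Pparg, Nr1i3 and Ppara and less Nr6a1, Nr5a2, Thrb and Esr1 than the Rab30Cpt2_f group. The authors' deposited table thus called 7 of 36, or 21.2% of the 33 receptors to which it gives an adjusted p. The background was 21% of all genes with an adjusted p called, 10.3% higher and 10.7% lower, so the share of receptors called was near it. The median log2 fold change of the 36 was −0.15, beside −0.026 over 17475 genes with an adjusted p. Over the 33 receptors with a mean of at least 10 counts in livers 1 to 4 it was −0.098.

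Set directly against the Cpt2 group, the Cpt1a knockout had more Nr2f2, Nr6a1, Rara, Nr1h5, Nr2f1 and Esr1 and less Rxrb, Pparg and Nr1h2. The authors' deposited table called 9 of 36, or 26.5% of the 34 receptors with an adjusted p. The share was not above the 28.8% of all genes called, 14.2% higher and 14.6% lower. The median of the 36 was 0.063, and 0.047 over the 33 with a mean of at least 10 counts, beside 0.054 over 17755 genes. In at least 1 of the 3 comparisons 14 receptors were called, and 22 never. That is 42.4% of the 33 receptors with an adjusted p in both complete tables, beside 40.4% of 17054 such genes. Nr1i3 alone was called against the Rab30Cpt2_f group in both tables, or 3.03% of the 33, beside 6.67% of those genes. Both of those comparisons use the same Rab30Cpt2_f group, so their values are set side by side below and are not independent. In what follows the direct comparison is that of the Cpt1a knockout against the Cpt2 group, and higher and lower there refer to the Cpt1a knockout.

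**Figure D2:**
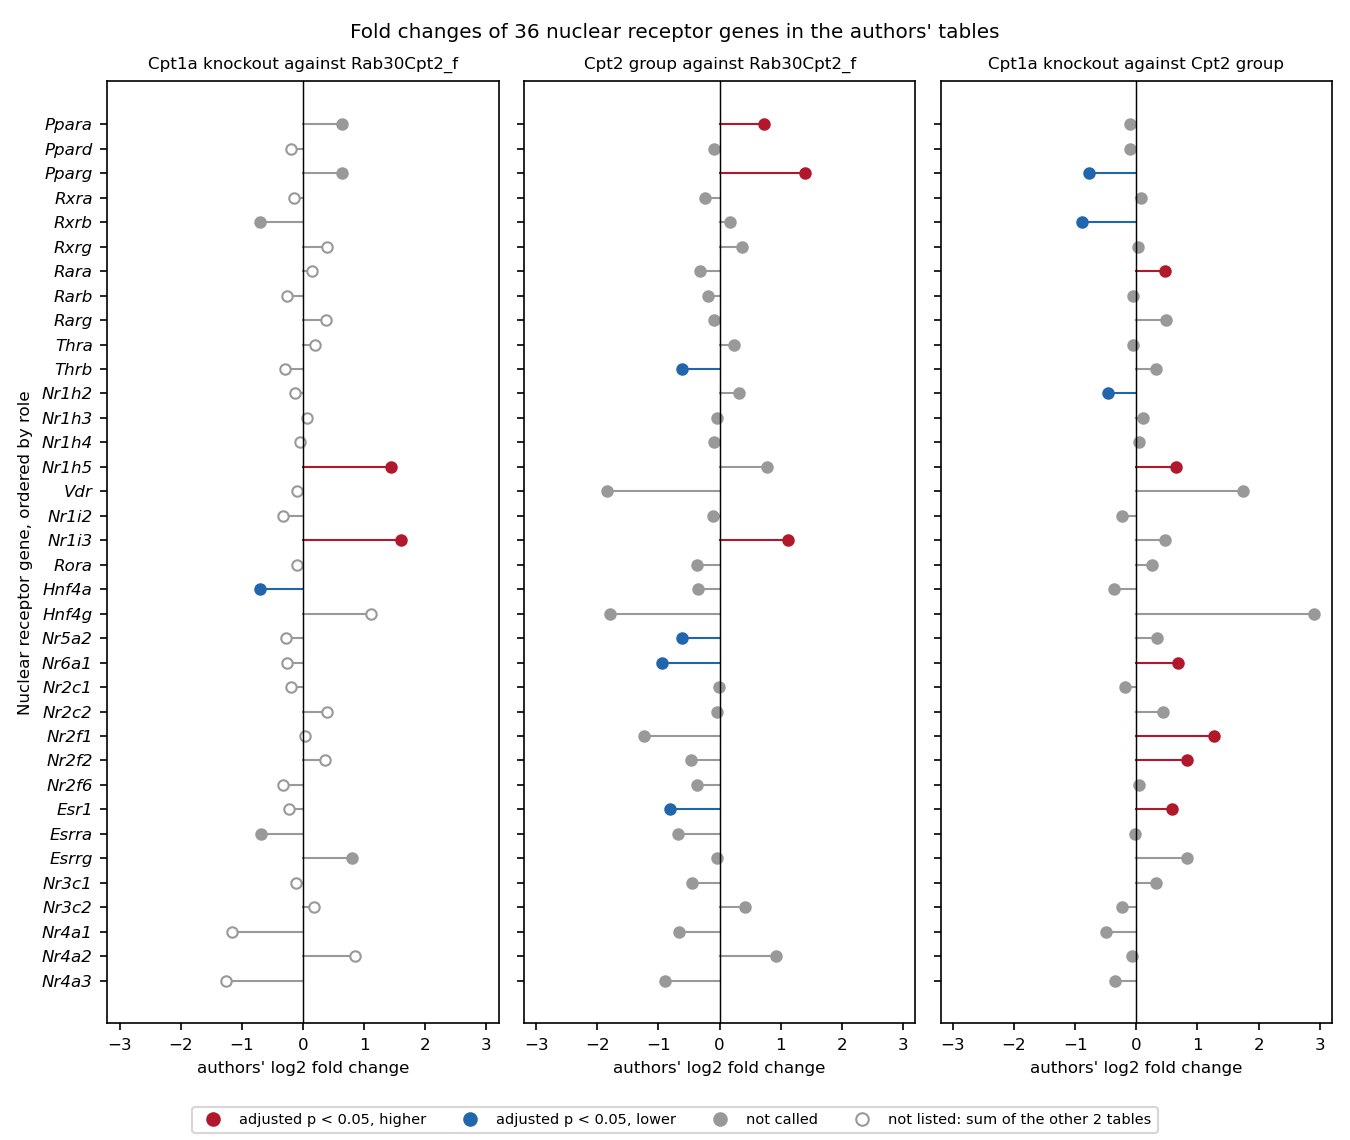
The authors' log2 fold change of 36 receptor genes, ordered by role, in 3 panels (left, Cpt1a knockout against Rab30Cpt2_f; middle, Cpt2 group against Rab30Cpt2_f; right, the direct comparison). Red and blue points passed an adjusted p below 0.05, grey points did not, and open points are sums of the other 2 tables for genes not listed. In the left panel only Nr1i3, Nr1h5 and Hnf4a are coloured, against 7 genes in the middle panel and 9 in the right one.

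Promoter sequence is shown for the 3 receptors called in the Cpt1a knockout and for Pparg, the receptor with the largest called fold change in the Cpt2 group. Each run holds the 250 bases before an annotated start in GRCm38.p6, 5′ to 3′ on the gene's strand, from RefSeq. Hnf4a has an upstream and a downstream start, and both are given. Pparg has 3 starts in the RefSeq set, of which the first, nearest to the gene's start in the files, is given. Capitals mark a motif match: the E-box CACGTG in Nr1i3, the HNF1 half-site GTTAAT on the minus strand in the downstream window of Hnf4a, and the hormone response half-site AGGTCA in Pparg.
Nr1i3, chr1:171213720-171213969, plus strand: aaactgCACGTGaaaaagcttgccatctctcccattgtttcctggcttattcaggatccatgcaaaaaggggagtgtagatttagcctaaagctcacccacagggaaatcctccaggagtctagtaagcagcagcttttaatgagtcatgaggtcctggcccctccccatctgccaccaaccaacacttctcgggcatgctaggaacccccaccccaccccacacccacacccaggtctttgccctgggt
Nr1h5, chr3:102964134-102964383, minus strand: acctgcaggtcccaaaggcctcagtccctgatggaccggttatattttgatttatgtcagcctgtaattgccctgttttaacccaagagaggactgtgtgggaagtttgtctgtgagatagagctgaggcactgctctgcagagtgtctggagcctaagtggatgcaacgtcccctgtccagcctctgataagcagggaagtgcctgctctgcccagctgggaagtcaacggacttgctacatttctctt
Hnf4a upstream start, chr2:163506607-163506856, plus strand: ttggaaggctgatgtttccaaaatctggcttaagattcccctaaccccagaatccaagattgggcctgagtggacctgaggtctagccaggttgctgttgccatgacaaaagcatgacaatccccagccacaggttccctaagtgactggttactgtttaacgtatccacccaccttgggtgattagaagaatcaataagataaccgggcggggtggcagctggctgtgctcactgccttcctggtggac
Hnf4a downstream start, chr2:163546905-163547154, plus strand: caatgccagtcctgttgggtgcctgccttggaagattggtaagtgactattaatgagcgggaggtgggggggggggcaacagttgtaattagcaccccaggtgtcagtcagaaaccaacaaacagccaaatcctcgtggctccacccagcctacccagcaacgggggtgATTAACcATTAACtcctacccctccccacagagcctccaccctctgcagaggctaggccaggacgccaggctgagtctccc
Pparg first start, chr6:115360894-115361143, plus strand: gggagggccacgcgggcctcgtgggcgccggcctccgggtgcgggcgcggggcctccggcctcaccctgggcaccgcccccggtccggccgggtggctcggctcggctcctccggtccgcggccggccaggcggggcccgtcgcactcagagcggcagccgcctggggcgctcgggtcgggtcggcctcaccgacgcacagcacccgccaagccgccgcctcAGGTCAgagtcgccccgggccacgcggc

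Of the 36 receptors 33 matched a RefSeq promoter, with 52 windows in all, and Thra, Hnf4g and Nr3c1 did not. The search covered 9 motifs on both strands, and some contain others: AAGGTCA always holds AGGTCA. The half-site AGGTCA, to which many of these receptors bind, was found in 9 of the 52 windows, and in 14% of 32851 promoters of the same length. The extended half-site AAGGTCA, bound by LRH-1, the estrogen-related receptors and the NR4A receptors, was in 3 windows and in 4.08% of promoters. The E-box CACGTG was in 3 windows and in 6.02% of promoters, and the HNF1 half-site GTTAAT in 5 and in 6.43%. In Nr1i3 the E-box lay 244 to 239 bases before the start. The AGGTCA match in the window shown for Pparg lay 28 to 23 bases before its start. The second Pparg window held another, 9 to 4 bases before its start, and the third held none. In Hnf4a the pair of HNF1 half-sites lay 81 to 76 and 74 to 69 bases before the downstream start. No window of the family held CAAAGTCCA of HNF4, a pair of AGGTCA half-sites 1 base apart, the looser PPAR element core in which the fourth base of each half-site is free, the ROR and REV-ERB element, or the glucocorticoid response element. These 5 motifs were in 0.0335% to 0.493% of all promoters. A match is a run of letters and not a tested binding site. The HNF1 motif was added after the data had been seen.

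Fatty acid sensors. Ppara, the fasting receptor that drives fatty acid oxidation, had 66.6, 51.9, 35.98 and 46.1 FPKM in livers 1 to 4. It was highest in liver 1 and lowest in liver 3. Against the Rab30Cpt2_f group the authors' deposited table gave a log2 fold change of 0.64 in the Cpt1a knockout, which was not called (adjusted p = 0.0642). It gave 0.72 in the Cpt2 group, which was called higher (adjusted p = 0.0386 in the authors' deposited table). These values were alike in size and lay on either side of the threshold. Between the Cpt1a knockout and the Cpt2 group the authors' deposited table had −0.097 (adjusted p = 0.825), with no interval.

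Pparg, best known as the receptor of fat cell formation and lipid storage, had 3.99, 3.87, 5.40 and 3.38 FPKM in livers 1 to 4. It was highest in liver 3, and its mean was 4.16 FPKM beside 50.2 FPKM for Ppara. The authors' deposited table gave a 2.63-fold rise in the Cpt2 group over the Rab30Cpt2_f group (log2 fold change 1.39, adjusted p = 1.28e-07). For the Cpt1a knockout over the Rab30Cpt2_f group it gave 0.64 (adjusted p = 0.0715 in the authors' deposited table), which was not called. The direct comparison in the authors' deposited table called Pparg lower in the Cpt1a knockout than in the Cpt2 group (log2 fold change −0.77, adjusted p = 0.00147). Ppard, a fatty acid sensor found in most tissues, was at 0.940, 1.504, 1.06 and 1.14 FPKM and was called in no comparison.

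Retinoid X receptors. Rxra, the common partner of the liver's lipid-sensing receptors, was at 82.1, 77.0, 76.9 and 74.2 FPKM in livers 1 to 4, the lowest SD of log2(FPKM + 1) among the 28 receptors at 1 FPKM or more. It was called in no comparison, and in the authors' deposited table its log2 fold change was −0.23 in the Cpt2 group against the Rab30Cpt2_f group (adjusted p = 0.387). Rxrb, a less abundant partner, was at 6.32, 7.59, 9.29 and 9.55 FPKM, lowest in liver 1. It was 1.85-fold lower in the Cpt1a knockout than in the Cpt2 group in the authors' deposited table (log2 fold change −0.89, adjusted p = 4.29e-05). Set against the Rab30Cpt2_f group, Rxrb had −0.71 in the Cpt1a knockout (adjusted p = 0.125) and 0.17 in the Cpt2 group (adjusted p = 0.780) in the authors' deposited table, neither called. Rxrg, known mainly from muscle and brain, had 1.91 to 3.79 FPKM and was not called.

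Retinoic acid and thyroid hormone receptors. Rara, a receptor of retinoic acid, was at 3.04, 3.91, 4.48 and 3.75 FPKM in livers 1 to 4, lowest in liver 1. It was higher in the Cpt1a knockout than in the Cpt2 group in the authors' deposited table (log2 fold change 0.47, adjusted p = 0.0211). Rarg, another retinoic acid receptor, was at 1.41 to 2.18 FPKM and was not called. Rarb, itself a target of retinoic acid, was at 0.0483 to 0.303 FPKM from 4 to 24 counts and was not called either. Thrb, the main thyroid hormone receptor of the liver, had 4.91, 4.78, 3.23 and 4.37 FPKM, lowest in liver 3. The authors' deposited table called Thrb lower in the Cpt2 group than in the Rab30Cpt2_f group (log2 fold change −0.61, adjusted p = 0.00663). Its summed value from the authors' deposited tables was −0.29 in the Cpt1a knockout, where it was not listed. Thra, the other thyroid hormone receptor, was at 2.59 to 3.60 FPKM and was not called. Of its exon bases 5.70% are shared with Nr1d1 on the opposite strand, which had a mean of 1105 counts beside 208 for Thra.

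Oxysterol and bile acid receptors. Nr1h5 encodes FXRbeta, a receptor that responds to lanosterol in mice and whose human counterpart is a pseudogene. It lies on chromosome 3, 102939658 to 102964133, minus strand (GRCm38). It had 1.90, 3.17, 2.05 and 2.18 FPKM in livers 1 to 4, from 81, 135, 92 and 97 counts, and liver 2 stood above the others. The authors' deposited table gave a 2.71-fold rise in the Cpt1a knockout over the Rab30Cpt2_f group (log2 fold change 1.44, adjusted p = 0.000428). For the Cpt2 group over the Rab30Cpt2_f group it gave 0.78, which was not called (adjusted p = 0.0767 in the authors' deposited table). The direct comparison in the authors' deposited table called Nr1h5 higher in the Cpt1a knockout than in the Cpt2 group (log2 fold change 0.64, adjusted p = 0.0291). At 2.32 FPKM on average it was far below its relative Nr1h4.

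Nr1h4, the bile acid receptor FXR, was at 57.2, 59.3, 63.4 and 59.7 FPKM in livers 1 to 4, with a coefficient of variation of 4.33%. Nr1h4 was called in no comparison, with a log2 fold change of −0.098 in the Cpt2 group against the Rab30Cpt2_f group in the authors' deposited table (adjusted p = 0.752). Nr1h3, the liver's main oxysterol receptor LXRalpha, had 32.1 to 47.8 FPKM, lowest in liver 1 and highest in liver 3, and was not called. Nr1h2, the widely expressed LXRbeta, had 10.2, 11.2, 15.6 and 15.4 FPKM, lower in livers 1 and 2 than in livers 3 and 4. Nr1h2 was lower in the Cpt1a knockout than in the Cpt2 group in the authors' deposited table (log2 fold change −0.46, adjusted p = 0.0298).

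Xenobiotic and vitamin D receptors. Nr1i3 encodes CAR, which switches on cytochrome P450 and conjugation genes in response to drugs and to fasting. It lies on chromosome 1, 171213970 to 171220701, plus strand. It had 13.6, 18.3, 22.0 and 31.6 FPKM in livers 1 to 4, from 898, 1217, 1543 and 2189 counts. Liver 4 was 2.33 times liver 1, the largest SD of the 28 receptors at 1 FPKM or more (0.49 on the log2(FPKM + 1) scale). The authors' deposited table gave a 3.03-fold rise in the Cpt1a knockout over the Rab30Cpt2_f group (log2 fold change 1.60, adjusted p = 8.66e-06). It was also higher in the Cpt2 group than in the Rab30Cpt2_f group, by 2.17-fold, in the authors' deposited table (log2 fold change 1.12, adjusted p = 0.00113). The Cpt1a knockout and the Cpt2 group themselves were not called apart in the authors' deposited table (log2 fold change 0.46, adjusted p = 0.179).

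A neighbour limits how far the counts of Nr1i3 can be read. In the GENCODE M21 annotation of GRCm38, 3304 of its 4414 exon bases, or 74.9%, also lie in exons of Tomm40l, a mitochondrial import gene on the opposite strand. Tomm40l had 349, 439, 443 and 557 counts in livers 1 to 4, lowest and highest in the same livers as Nr1i3. Against the Rab30Cpt2_f group Tomm40l had a log2 fold change of 1.59 in the Cpt1a knockout (adjusted p = 9.23e-12) and of 1.22 in the Cpt2 group (adjusted p = 0.000118) in the authors' deposited table. Whether reads were counted by strand is not known, and without strand the reads of Nr1i3 and Tomm40l cannot be told apart. This overlap was looked for after the values had been seen. No annotated exon of another gene overlapped those of Nr1h5, Hnf4a, Ppara or Pparg.

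Nr1i2, the drug and bile acid sensor PXR, had 37.5, 35.98, 39.2 and 60.2 FPKM in livers 1 to 4. Liver 4 stood apart from the other 3, and was also the highest for Nr1i3. Nr1i2 was called in no comparison, and its summed value from the authors' deposited tables was −0.33 in the Cpt1a knockout against the Rab30Cpt2_f group. Vdr, the vitamin D receptor, had 3, 1, 0 and 0 counts, and a count of 0 allows up to 0.0335 and 0.0338 FPKM in livers 3 and 4 (3 counts, counting error only).

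Liver and orphan factors. Hnf4a, which holds up hepatocyte identity and is the most abundant receptor here, lies on chromosome 2, 163506808 to 163572910, plus strand. It had 143, 131, 105 and 113 FPKM in livers 1 to 4, highest in liver 1 and lowest in liver 3. The authors' deposited table had it 1.63-fold lower in the Cpt1a knockout than in the Rab30Cpt2_f group (log2 fold change −0.70, adjusted p = 0.0166). Its log2 fold change of −0.36 in the Cpt2 group against the Rab30Cpt2_f group was not called (adjusted p = 0.324 in the authors' deposited table). Nor did the authors' deposited table call the Cpt1a knockout and the Cpt2 group apart for Hnf4a (log2 fold change −0.36, adjusted p = 0.140).

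Nr5a2, the LRH-1 receptor of bile acid and cholesterol genes, had 12.7, 10.4, 9.39 and 8.26 FPKM in livers 1 to 4. It was lower in the Cpt2 group than in the Rab30Cpt2_f group in the authors' deposited table (log2 fold change −0.62, adjusted p = 0.00561). Nr6a1, the germ cell nuclear factor known for repressing stem cell genes in mouse embryos, had 0.911, 1.12, 0.972 and 1.33 FPKM. Nr6a1 was lower in the Cpt2 group than in the Rab30Cpt2_f group in the authors' deposited table (log2 fold change −0.94, adjusted p = 2.8e-06). It was higher in the Cpt1a knockout than in the Cpt2 group in the authors' deposited table (log2 fold change 0.68, adjusted p = 0.00282). Its summed value from the authors' deposited tables was −0.26 in the Cpt1a knockout against the Rab30Cpt2_f group, where it was not listed. Rora, which binds the same element as the clock receptors, had 8.70, 6.35, 4.58 and 5.99 FPKM and was not called. Hnf4g, a relative of Hnf4a known from gut and kidney, had 5, 2, 1 and 1 counts.

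Orphan receptors of the NR2C and NR2F groups. Nr2f2, the developmental regulator COUP-TFII, was at 6.27, 5.40, 4.96 and 5.22 FPKM in livers 1 to 4, a narrow range. It gave the smallest adjusted p of the family in the direct comparison. The authors' deposited table had it 1.78-fold higher in the Cpt1a knockout than in the Cpt2 group (log2 fold change 0.83, adjusted p = 1.11e-06). Set against the Rab30Cpt2_f group, Nr2f2 had a summed value of 0.37 in the Cpt1a knockout and a log2 fold change of −0.47 in the Cpt2 group (adjusted p = 0.0983) in the authors' deposited tables, neither called. Nr2f1, its close relative COUP-TFI, had only 22, 21, 23 and 16 counts in livers 1 to 4. Nr2f1 was higher in the Cpt1a knockout than in the Cpt2 group in the authors' deposited table (log2 fold change 1.27, adjusted p = 0.0305). In adult liver the NR2F receptors are known from vessel and stellate cells as well as from hepatocytes.

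Nr2f6, a repressor of the same group, was at 13.8, 14.5, 22.9 and 18.7 FPKM in livers 1 to 4 and was not called. Of its exon bases 54.4% are shared with Ocel1 on the opposite strand. Nr2c1 and Nr2c2, the testicular receptors 2 and 4 by their old names, were at 2.23 to 3.12 and 0.696 to 1.58 FPKM, and neither was called. Exons of Mrps25 cover 30.7% of those of Nr2c2 and exons of Top2b 34.1% of those of Rarb, both on the opposite strand.

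Estrogen and estrogen-related receptors. Esr1, the estrogen receptor alpha, had 1.45, 1.39, 1.49 and 0.894 FPKM, with liver 4 below the other 3. Esr1 was lower in the Cpt2 group than in the Rab30Cpt2_f group in the authors' deposited table (log2 fold change −0.81, adjusted p = 0.0161). The Cpt1a knockout had more Esr1 than the Cpt2 group in the authors' deposited table (log2 fold change 0.58, adjusted p = 0.0387). Esrra, which with its coactivator PGC-1alpha drives mitochondrial genes, had 14.6, 18.1, 21.6 and 17.2 FPKM. Its log2 fold change against the Rab30Cpt2_f group was −0.69 in the Cpt1a knockout (adjusted p = 0.0821) and −0.68 in the Cpt2 group (adjusted p = 0.0630) in the authors' deposited tables, outside the threshold in both. Esrrg, a relative known to respond to fasting in liver, was at 0.328 to 0.650 FPKM and was not called (log2 fold change 0.80, adjusted p = 0.186, in the authors' deposited table for the Cpt1a knockout against the Rab30Cpt2_f group).

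Corticosteroid and NR4A receptors. Nr3c1, the glucocorticoid receptor, was at 12.6, 10.9, 8.05 and 8.92 FPKM in livers 1 to 4, and Nr3c2, the mineralocorticoid receptor, at 2.61, 2.05, 1.23 and 1.89 FPKM. Both were highest in liver 1 and lowest in liver 3, and neither was called. For Nr3c1 the authors' deposited table gave a log2 fold change of −0.45 in the Cpt2 group against the Rab30Cpt2_f group (adjusted p = 0.133). The NR4A receptors, quickly induced by hormones such as glucagon, were scarce: Nr4a1 had 41, 75, 45 and 34 counts, Nr4a2 9 to 13 and Nr4a3 0 to 3. None of them was called, and the authors' deposited table gave no p for Nr4a1 in the Cpt2 group (log2 fold change −0.67).

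Genes linked to these receptors are given next, from 12 lists. They are lists of genes known to lie downstream, of coactivators, of corepressors, and of ligand and receptor support. The list for the estrogen-related receptors (ERR) also holds Esrra itself and the coactivator gene Ppargc1a, and that for the retinoic acid receptors (RAR) holds Rarb. The lists share some genes (Cyp8b1, for example, is in 3 of them), and they were drawn up with earlier results of these data known. Their medians stand beside the medians over all genes given above. Their counts stand beside the shares of all genes called higher and lower against the Rab30Cpt2_f group. These were 6.81% and 7.6% in the Cpt1a knockout and 10.3% and 10.7% in the Cpt2 group. In the direct comparison the shares were 14.2% and 14.6%. No list was tested against these shares, and in a short list a few calls can lie near them. Of 35 PPAR targets, 15 were higher and 3 lower in the Cpt1a knockout against the Rab30Cpt2_f group in the authors' deposited table, with a median summed value of 0.62. Ehhadh, a peroxisomal beta-oxidation enzyme, had a log2 fold change of 2.25 there, Acot1, an acyl-CoA thioesterase, 2.40, and Cd36, which takes up fatty acids, 2.71 (the authors' deposited table). The Cpt2 group had 24 of the 35 higher and none lower against the Rab30Cpt2_f group in the authors' deposited table, with a median of 1.24. Among them Ehhadh had 3.28, and Pdk4, which holds back glucose oxidation, 3.83 in the authors' deposited table. Set directly against the Cpt2 group, 24 of the 35 were lower and 1 higher in the Cpt1a knockout in the authors' deposited table, with a median of −0.67. Cpt1a itself, the deleted gene, is in this list and counts among the lower genes in both comparisons of the Cpt1a knockout.

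Drug metabolism genes were called in both directions, with more of them lower than higher in each comparison. Of 19 CAR and PXR targets with an adjusted p, 1 was higher and 6 lower in the Cpt1a knockout against the Rab30Cpt2_f group in the authors' deposited table (median summed value −0.21). Cyp2b10, the gene most used as a readout of CAR in mice, had a log2 fold change of −3.68 there in the authors' deposited table (adjusted p = 0.00182). Cyp3a11, a PXR target, had −1.33 in the Cpt1a knockout and −3.23 in the Cpt2 group against the Rab30Cpt2_f group in the authors' deposited tables. The gene that was higher was the cytochrome P450 Cyp3a13, at 0.74 in the authors' deposited table (adjusted p = 0.00596). Gsta1, a glutathione transferase, was 31.3-fold higher in the Cpt2 group than in the Rab30Cpt2_f group in the authors' deposited table (log2 fold change 4.97, adjusted p = 2.94e-12). Gsta1 was lower in the Cpt1a knockout than in the Cpt2 group in the authors' deposited table (log2 fold change −3.97, adjusted p = 6.41e-13). For the Cpt2 group against the Rab30Cpt2_f group 2 were higher and 6 lower, with a median of 0.083, and in the direct comparison 2 were higher and 5 lower in the Cpt1a knockout in the authors' deposited tables.

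Glucocorticoid receptor targets were called lower in both comparisons with the Rab30Cpt2_f group, and Nr3c1 was called in neither. The Cpt1a knockout had 12 of 19 lower and none higher, with a median summed value of −0.99, and the Cpt2 group 9 of 19 lower and none higher, with a median of −0.81, in the authors' deposited tables. Tat, tyrosine aminotransferase, had log2 fold changes of −2.38 in the Cpt1a knockout and −1.95 in the Cpt2 group (the authors' deposited tables). Fkbp5, a chaperone partner of the receptor, had −1.30 in the Cpt1a knockout and −1.49 in the Cpt2 group (the authors' deposited tables). In the direct comparison 4 of 20 were higher and 3 lower in the Cpt1a knockout in the authors' deposited table. Another list holds genes that make, carry or clear ligands or hold the receptors. It had 4 of 22 higher and 8 lower in the Cpt1a knockout, 4 higher and 9 lower in the Cpt2 group, and 8 higher and 6 lower in the direct comparison in the authors' deposited tables. Hsd11b1 of that list, which regenerates active glucocorticoid, had −1.22 in the Cpt1a knockout and −2.19 in the Cpt2 group (the authors' deposited tables).

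Of 22 HNF4A and LRH-1 targets 8 were lower and none higher in the Cpt1a knockout, and 12 lower and 3 higher in the Cpt2 group, in the authors' deposited table. The clotting factor gene F7 had −1.30 in the Cpt1a knockout and −1.56 in the Cpt2 group in the authors' deposited table. In the direct comparison 7 were higher and 6 lower in the Cpt1a knockout in the authors' deposited table. Of 15 FXR targets 3 were lower and none higher in the Cpt1a knockout, and 8 lower and 1 higher in the Cpt2 group, in the authors' deposited table. The list holds genes that FXR induces, such as Nr0b2, and genes that it represses, such as Cyp7a1. Both were lower in the Cpt2 group (−3.95 and −3.46 in the authors' deposited table), so the counts do not give a direction of FXR activity. Abcb11, the bile salt export pump, had −1.14 in the Cpt1a knockout and −2.58 in the Cpt2 group in the authors' deposited table, while Nr1h4 was called in neither. Set against the Cpt2 group directly, 7 FXR targets were higher and 2 lower in the Cpt1a knockout in the authors' deposited table.

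The remaining lists gave fewer or mixed calls. Of 14 LXR targets none was higher and 3 lower in the Cpt1a knockout, 2 higher and 4 lower in the Cpt2 group, and 2 higher and 3 lower in the direct comparison in the authors' deposited table. The lipogenic regulator Srebf1 had −1.47 in the Cpt1a knockout and −1.02 in the Cpt2 group in the authors' deposited table. RAR targets, of which 13 had an adjusted p, had 2 higher and 3 lower in the Cpt1a knockout, 2 higher and 5 lower in the Cpt2 group, and 5 higher and 4 lower in the direct comparison in the authors' deposited table. Rarres1, first described as induced by retinoids, had 4.29 in the Cpt1a knockout and 5.25 in the Cpt2 group, while Cyp26a1, which breaks down retinoic acid, had −5.11 in the Cpt2 group in the authors' deposited table. Of 14 thyroid hormone receptor targets 3 were higher and 2 lower in the Cpt1a knockout, 4 higher and 3 lower in the Cpt2 group, and 2 higher and 3 lower in the direct comparison in the authors' deposited table. Dio1, which activates thyroid hormone, had 1.03 in the Cpt1a knockout in the authors' deposited table.

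Of 15 ERR targets 5 were lower and none higher in the Cpt1a knockout in the authors' deposited table. Among them Ppargc1a, the coactivator PGC-1alpha, had a log2 fold change of −1.23 in the authors' deposited table (adjusted p = 0.00264). In the Cpt2 group 2 of 15 were higher and 1 lower, and in the direct comparison 1 of 16 was higher and 6 lower in the Cpt1a knockout, in the authors' deposited table. Of 22 coactivators 1 was higher and 3 lower in the Cpt1a knockout, 3 higher and 3 lower in the Cpt2 group, and 2 higher and 5 lower in the direct comparison in the authors' deposited table. Lpin1, which works with PPARalpha and PGC-1alpha, had −3.07 in the Cpt1a knockout in the authors' deposited table. Of 17 corepressors 3 were higher and none lower in the Cpt1a knockout, 3 higher and 2 lower in the Cpt2 group, and 3 higher and 3 lower in the direct comparison in the authors' deposited table. The 3 higher in the Cpt1a knockout were Lcor, Nr1d1 and Nr1d2, and Nr1d1 and Nr1d2 are the clock receptors left out of the set. Lcor, a ligand-dependent corepressor, had 1.82 there, Nr1d1 1.54 and Nr1d2 0.53 in the authors' deposited table. Nr0b2, the FXR-induced repressor SHP, had −3.95 in the Cpt2 group in the authors' deposited table.

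**Figure D3:**
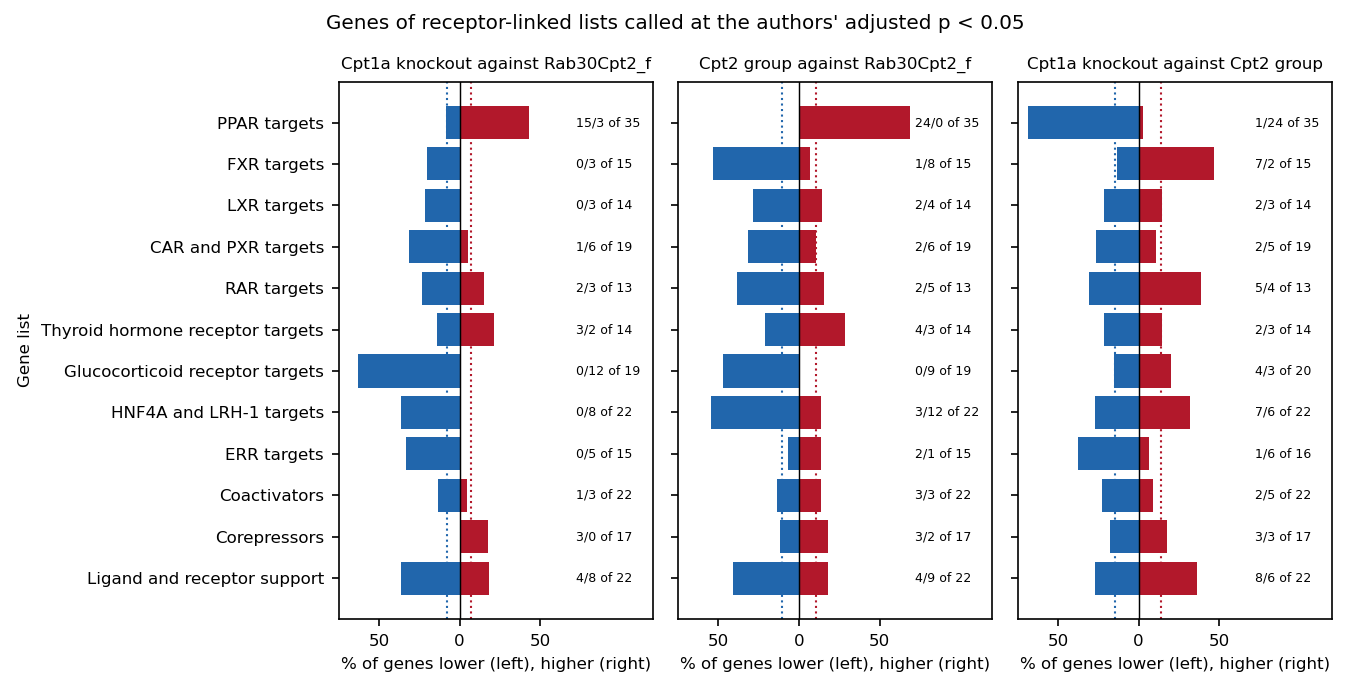
Share of each receptor-linked gene list called higher (red, right) or lower (blue, left) at the authors' adjusted p below 0.05, in 3 comparisons; the printed numbers are genes higher and lower of those with an adjusted p, and dotted lines mark the share over all genes. PPAR targets were higher in 15 of 35 in the Cpt1a knockout and 24 of 35 in the Cpt2 group against the Rab30Cpt2_f group, and glucocorticoid receptor targets were lower in 12 and 9 of 19.

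Markers of liver cell types were also called in these comparisons, and their counts stand beside the shares of all genes given above. Of 9 hepatocyte markers 6 were lower and none higher in the Cpt1a knockout against the Rab30Cpt2_f group in the authors' deposited table. The median summed value of the 9 was −0.73, and Hnf4a is 1 of the 6. Ttr and Serpina1a are in this list and in that of HNF4A and LRH-1 targets, so the counts of these lists are not independent. The Cpt2 group had 7 of 9 lower and none higher in the authors' deposited table, without Hnf4a among them, and in the direct comparison 2 were higher and 2 lower in the Cpt1a knockout. Kupffer cell and macrophage markers were higher in 2 of 10 in the Cpt1a knockout, lower in 3 of 10 in the Cpt2 group, and higher in 9 of 10 in the Cpt1a knockout against the Cpt2 group in the authors' deposited table. Endothelial markers were higher in 2 of 10 in the Cpt1a knockout, lower in 1 of 10 in the Cpt2 group, and higher in 5 of 10 in the direct comparison in the authors' deposited table. In the direct comparison Nr2f1, Nr2f2 and 4 other receptors were called higher, and Rxrb, Pparg and Nr1h2 lower. Stellate cell markers had 1 of 11 higher and 3 lower in that comparison, with a median of −0.18, in the authors' deposited table. The part of cell numbers in the receptor calls was not tested. In whole liver, fewer cells of a type and less RNA per cell cannot be told apart.

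In the 4 Cpt1a knockout livers hepatocyte markers summed to 24572 to 34141 FPKM, Kupffer cell markers to 218 to 239.6 FPKM and endothelial markers to 87.7 to 93.9 FPKM. Stellate cell markers summed to 70.3 to 78.2 FPKM, and were higher in 2 of 11 in the Cpt1a knockout and higher in 1 in the Cpt2 group in the authors' deposited table. Bile duct markers summed to 8.56 to 12.4 FPKM and were lower in 1 of 5 in the Cpt2 group and higher in 1 of 5 in the direct comparison in the authors' deposited table. Lymphocyte markers summed to only 3.68 to 5.23 FPKM, and were higher in 3 of 10 in the Cpt1a knockout, lower in 1 in the Cpt2 group and higher in 4 in the direct comparison in the authors' deposited table. Adipocyte markers summed to 3.27 to 5.01 FPKM, with Lep and Retn at a count of 0. Of the 3 adipocyte markers with an adjusted p, Fabp4 was higher in the Cpt2 group against the Rab30Cpt2_f group in the authors' deposited table, where Pparg, also a fat cell gene, was higher. The part of these cells in the receptor values was not tested.

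Among the 28 receptors at 1 FPKM or more, the spread over the 4 livers was widest for Nr1i3 and narrowest for Rxra. Over these 28 the median SD was 0.23 on the log2(FPKM + 1) scale, beside 0.20 over 10859 genes at that level. It ran from 0.060 for Rxra to 0.49 for Nr1i3. Liver 1 held the highest value for 11 of the 28 and the lowest for 12. Over all genes it held the highest for 34.2% and the lowest for 30.2%, beside 39.3% and 42.9% of the receptors.

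The difference between livers 1 and 3 went with the length and the base composition of the genes. Ppara, Rora and Nr3c2 were higher in liver 1, and Nr2f6, Nr1i3 and Nr1h2 were higher in liver 3. Of the 14 receptors with gene models shorter than the family median, 1 was higher in liver 1, with a median difference of −0.46 on the log2 scale. Of the 14 longer ones 10 were higher in liver 1, with a median of 0.38. Length and GC content went together in the family. The median GC content was 53.9% in the shorter genes and 45.7% in the longer ones, and the parts of length and GC were not separated. Across the 28 genes Spearman's rho of the difference was 0.65 with length and −0.66 with GC content, and across all 10859 genes 0.41 and −0.32. These are descriptions across genes that share the same 2 libraries, and the 2 livers were picked after the values had been seen. Over all genes the group comparisons had weaker relations, with rho of −0.15 with length and −0.15 with GC for the Cpt1a knockout against the Rab30Cpt2_f group. For the Cpt2 group against the Rab30Cpt2_f group they were 0.040 and 0.11, and for the Cpt1a knockout against the Cpt2 group −0.19 and −0.22. The part of length and GC in the receptor calls was not tested.

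**Figure D4:**
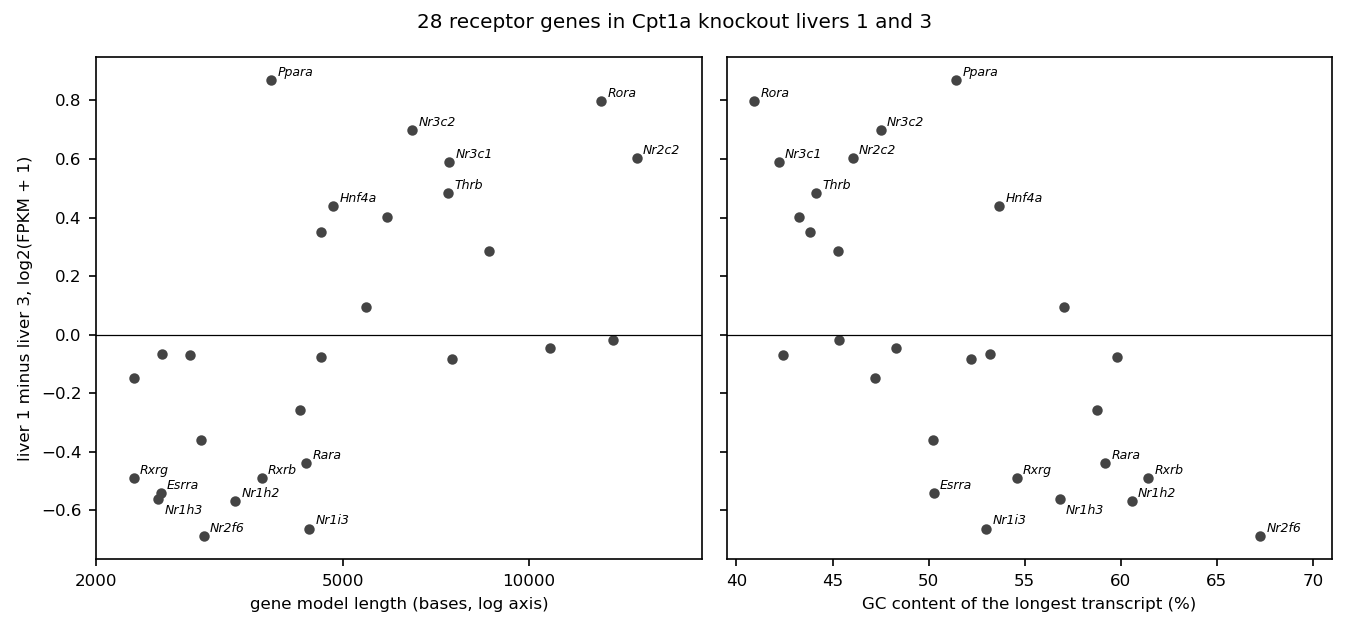
Difference between Cpt1a knockout livers 1 and 3 on the log2(FPKM + 1) scale for 28 receptor genes, against gene model length (left, log axis) and GC content of the longest transcript (right). Rora, long and GC-poor, sits above 0 and Nr2f6, short and GC-rich, below it, but Ppara has the highest difference (0.87) with a model of 3836 bases and the long Esr1 is at −0.019; Spearman's rho is 0.65 and −0.66.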

How the data were processed

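RNA-seq libraries of 4 livers were analysed. Total RNA came from frozen liver by TRIzol and RNeasy columns, per the labels' protocols. The submitters' processing notes name HISAT2 and the builds GRCm38 and mm10. No source used here names the counter, the annotation release or whether strand was used. The deposited count table holds raw reads per gene and gene model lengths. FPKM values were deposited by the authors, scaled to a library size of 1.06 to 1.15 times the summed counts. The authors' comparison tables hold log2 fold changes with p-values and adjusted p-values per gene, per the file headers, and the test behind them is not named. Where an adjusted p stood at 1, the gene was taken as not adjusted. Columns of 8 libraries that match no sample of the series, and the group means made from such columns, were not used.

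Since the series holds 1 group, no model between groups was fitted, and calls rest on the authors' adjusted p (below 0.05) and direction. The table for the Cpt1a knockout and the Rab30Cpt2_f group is partial, and its adjusted values correspond to 16862 tests. Levels are FPKM as mean ± SD over 4 libraries. Spread is the SD of log2(FPKM + 1), with a pseudocount of 1 and a minimum mean of 1 FPKM. Pairs of libraries differed by a chi-square per gene of 20.5 to 68.1, so none is a copy of another. Limits for counts of 0 use 3 counts and cover counting error only. Promoters came from RefSeq (GRCm38.p6), and exon overlap and GC content from GENCODE M21.

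All 36 receptors are named, and from each list genes with the smallest adjusted p or others as examples. The members and lists were chosen with earlier results of these data known. The spread and the number of tests were checked on simulated data. Alternatives used edgeR 4.0.16 and DESeq2 1.42.0 factors in R 4.3.3, and other steps pandas 2.3.3 and scipy 1.17.1 in Python 3.11.15.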

Additional observations from a re-analysis of the deposited data

Results flagged for a closer look

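In each of 3 receptors the gap between liver 4 and the nearest other liver took up most of the range of the 4. Nr1i2 had 60.2 FPKM in liver 4 and 35.98 to 39.2 FPKM in the others. Nr2f1 had 0.1999 FPKM in liver 4, from 16 counts, and 0.274 to 0.288 FPKM in the others, a coefficient of variation of 15.9% beside a counting error of 22.1%, so this value lies within counting error. Esr1 had 0.894 FPKM in liver 4 and 1.39 to 1.49 FPKM in the others. These are 3 of 36 genes tested, and chance gives about 1 in 20.

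The difference between the Cpt1a knockout and the Cpt2 group was tested directly by the authors and passed an adjusted p below 0.05 in 9 receptors. That is 26.5% of the 34 with an adjusted p, beside 28.8% of all genes, so the count is not above the background. In the authors' deposited table the log2 fold change was 0.83 for Nr2f2, 0.68 for Nr6a1, 0.47 for Rara, 0.64 for Nr1h5, 1.27 for Nr2f1 and 0.58 for Esr1. It was −0.89 for Rxrb, −0.77 for Pparg and −0.46 for Nr1h2 in the authors' deposited table.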

How the results depend on the processing

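The number of receptors at a mean of at least 1 FPKM was 28, and 28 to 29 when 1 liver was left out. It was 30 at a minimum of 1 TPM, 30 at 0.5 FPKM and 22 at 2 FPKM. The mean levels of all 36 were higher in TPM than in FPKM (Hnf4a 322 beside 123), so a minimum of 1 is looser in TPM. The median SD of 0.23 was 0.18 to 0.26 when 1 liver was left out and 0.21 to 0.28 with another pseudocount, no filter, or log2 CPM with edgeR or DESeq2 factors. In the Cpt1a knockout against the Rab30Cpt2_f group the 2 higher calls became 4 at an adjusted p below 0.1 and 5 at an unadjusted p below 0.05. The 1 lower call, Hnf4a, became 0 at an adjusted p below 0.01 and 0 when the log2 fold change had to reach 1 in size, and the count was 2 below 0.1 and 3 unadjusted. In the Cpt2 group the 3 higher calls became 5 unadjusted, and the 4 lower calls 0 at a log2 fold change of 1 and 9 unadjusted. Between the Cpt1a knockout and the Cpt2 group the 6 higher calls became 2 below 0.01 and 1 at a log2 fold change of 1, and the 3 lower calls 0 at a log2 fold change of 1. These changes follow from a stricter or wider threshold. A minimum mean count of 10 moved no count of calls. At an adjusted p below 0.01, 56 of the list counts stayed within 1.5 times and 16 did not. No paired analysis was possible because the series holds 1 group. Depth leaves Vdr, Hnf4g and Nr4a3 without a usable level, and the authors' tables give no SE for any fold change.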
